A study of Mus musculus with 14 samples.

Results

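The complement genes described here are C1qa, C1qb, C1qc, C4b, C2, C3, Cfb, Cfp and Hc, taken from the deposited table by gene symbol. All 9 were found, each at a single entry, among the 56414 genes listed. The entry of C3 also names the microRNA Mir6978 and that of Cfb the microRNA Mir6972, so that reads from these microRNA loci cannot be told apart from those of the host gene.

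Complement is a cascade of proteins that tags and lyses cells and attracts leukocytes. C1q, a recognition molecule built from the A, B and C chains encoded by C1qa, C1qb and C1qc, opens the classical pathway, in which C4 (C4b in the mouse) and C2 form the convertase that cleaves C3. Factor B (Cfb) forms the convertase of the alternative pathway, properdin (Cfp) stabilizes it, and C5 (Hc, for hemolytic complement) is the source of the chemoattractant C5a and of the first component of the membrane attack complex. The liver makes most circulating complement, whereas in tissues C1q comes mainly from macrophages, and C3, C4 and factor B are also made by fibroblasts, epithelial cells and adipose tissue.

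Bulk RNA-seq of polyadenylated RNA was performed on 14 mammary tumors of C57Bl/6 mice, with 1 library per tumor. M/D-driven tumors arose in females implanted at 6 to 9 weeks of age with a pellet releasing 50 mg of medroxyprogesterone acetate (MPA) over 90 days and given 6 oral gavages of 200 µL of 7,12-dimethylbenz[a]anthracene (DMBA) at 5 mg per mL, so that every M/D-driven tumor, untreated or not, was exposed to both agents. AT3 tumors grew from subcutaneously injected cells of AT3, a mouse mammary carcinoma line, so that all AT3 tumors derive from 1 line and none was exposed to MPA or DMBA. Mice were randomized at a tumor size of 0.25 cm2 and either left untreated (4 M/D-driven and 3 AT3 tumors) or given nicotinamide (NAM) at 0.5% in the drinking water for 10 days (4 M/D-driven and 3 AT3 tumors). The study's methods give 1 age range for all mice and none for the AT3 hosts alone. They count transcriptomic samples in mice, but the labels do not name the mouse of each tumor, and p values measure the spread between tumors.

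The deposited values are counts divided by a size factor of the tumor (normalized counts), and whole reads recovered from them totalled 40936868 to 84178009 per tumor. The labels assign NAM-treated M/D-driven tumor 1 to experiment 2, apart from the 7 others of its model (experiment 1), and its profile also stood apart. It had a normalized count of 932 for the epithelial gene Epcam, against 16166 to 62247 in the other M/D-driven tumors, and of 67823 for the pre-B cell gene Vpreb1, against 55.5 or less in all other tumors. The effects of NAM in M/D-driven tumors are therefore given with and without it. The paper describes its transcriptomic findings as coming from 1 experiment, and what the experiment numbers of the labels stand for is not stated. AT3 tumors, all from experiment 3, had Epcam between 18832 and 27578, and of 6 hepatocyte entries, 3 (Alb, Fgb and the entry shared by Serpina1a and Serpina1b) were at 0 in all untreated AT3 tumors. The hepatocyte gene Apoa1 went the other way, with a mean of 489 normalized counts in untreated AT3 and 1.32 in untreated M/D-driven tumors. In whole tumors, fewer cells of a type and less RNA per cell cannot be told apart.

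The 9 genes lie on the minus strand of mm10 and are protein coding. The C1q genes form a cluster on chromosome 4, with C1qb (136880133 to 136886196) followed by C1qc (136889802 to 136892915) after 3605 bases and by C1qa (136895916 to 136898844) after a further 3000 bases. C4b (34728380 to 34743897), Cfb (34856379 to 34862514) and C2 (34862602 to 34882101) lie together on chromosome 17, where only 87 bases separate Cfb from C2, and C3 (57203967 to 57228136) is on the same chromosome. Hc lies on chromosome 2 (34983331 to 35061441) and Cfp on chromosome X (20925454 to 20931555). Promoter sequences of RefSeq (GRCm38.p6) were matched by symbol for 5 of the 9 genes (C1qb, C1qc, C3, Cfp and Hc), and not for C1qa, C2, C4b and Cfb. The 250 bases before the start site are shown, 5′ to 3′ on the gene's strand, for C1qb and C1qc, as neighbours whose levels moved together, and for C3, the member with the largest difference between models. They span chr4:136886201-136886450 (C1qb), chr4:136892915-136893164 (C1qc) and chr17:57228137-57228386 (C3), all on the minus strand, and capitals mark every match of a searched motif. GENCODE extends C1qc to 136893065, so that part of its window lies inside the GENCODE gene. Distances to the start site hold for the RefSeq start.
C1qb: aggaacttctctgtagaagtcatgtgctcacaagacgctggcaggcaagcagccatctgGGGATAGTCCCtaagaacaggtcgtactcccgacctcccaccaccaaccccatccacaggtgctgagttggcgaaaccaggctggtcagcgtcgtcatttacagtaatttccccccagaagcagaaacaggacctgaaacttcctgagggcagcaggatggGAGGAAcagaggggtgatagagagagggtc
C1qc: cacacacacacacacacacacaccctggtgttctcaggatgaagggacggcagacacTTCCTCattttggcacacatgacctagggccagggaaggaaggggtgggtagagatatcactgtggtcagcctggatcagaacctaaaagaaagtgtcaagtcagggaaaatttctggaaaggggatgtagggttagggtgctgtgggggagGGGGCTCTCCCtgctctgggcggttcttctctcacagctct
C3: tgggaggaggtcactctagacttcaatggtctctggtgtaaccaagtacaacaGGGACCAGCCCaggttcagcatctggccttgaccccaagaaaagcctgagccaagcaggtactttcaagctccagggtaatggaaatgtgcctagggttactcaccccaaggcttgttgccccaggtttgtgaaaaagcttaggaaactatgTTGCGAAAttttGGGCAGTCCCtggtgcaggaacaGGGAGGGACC

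Motifs were searched on both strands, and matches may overlap each other. The core of PU.1 (GAGGAA), a factor of myeloid cells, occurred in the promoters of C1qb, 30 to 25 bases before the start site, and of C1qc, on the opposite strand 193 to 188 bases before it, and in 23.25% of all 32851 RefSeq promoters. The C/EBP motif (TTGCNNAA) occurred in the C3 promoter alone among these 5, 45 to 38 bases before the start site, and in 9.56% of all promoters. The letters used for NF-kB (GGG, then any 5 bases, then CC) occurred in 4 of the 5 (C1qb, C1qc, C3 and Cfp), and in 45.8% of all promoters. Neither the pair of IRF half-sites (GAAA on either side of any 2 bases, 2.98% of all promoters) nor the STAT site (TTCNNNGAA, 7.02%) was found in these windows. A match is a string of letters and was not tested for binding.

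Per kilobase of transcript, the C1q genes stood at the top of the 9 genes in every group. In untreated M/D-driven tumors, C1qa had a mean of 31698 ± 6884 (SD, n = 4) normalized counts per kb, C1qb of 30115 ± 4225 and C1qc of 23753 ± 5437, and the ranges of these neighbours overlapped. C4b came next with 5838 ± 3291, below every C1q value, followed by Cfb (3557 ± 1204), Cfp (2764 ± 1017), C2 (1540 ± 551) and C3 (1131 ± 352). Hc was the lowest, with 52.0 ± 14.4 normalized counts per kb. In untreated AT3 tumors the order began in the same way, with C1qa at 15877 ± 5146 (SD, n = 3), C1qb at 13854 ± 4881 and C1qc at 8907 ± 2093, but C4b came after Cfp (1035 ± 150) and Cfb (942 ± 434) with 581 ± 206 normalized counts per kb. C2 (245 ± 47.0), C3 (74.2 ± 13.7) and Hc (4.30 ± 2.80) closed the order in untreated AT3 tumors. The values of each gene in every tumor are shown in the plot of scaled counts by group, on a scale common to both models.

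**Figure D1:**
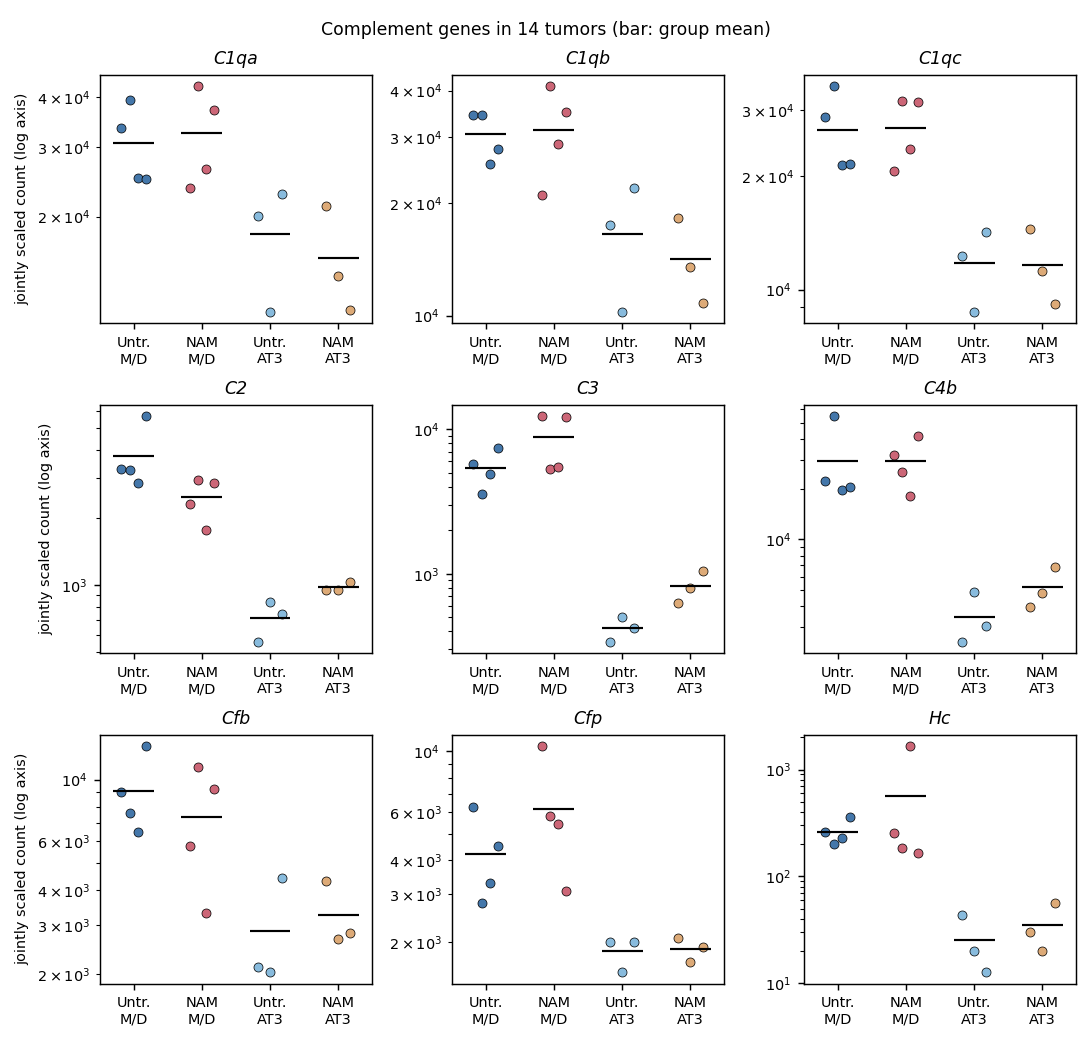
Each panel shows 1 complement gene, with the count of each tumor after TMM scaling over all 14 tumors on a log axis, 1 point per tumor and a bar at the group mean (M/D-driven tumors, 4 untreated and 4 given NAM, then AT3 tumors, 3 untreated and 3 given NAM, with Untr. for untreated). All untreated M/D-driven tumors lie above all untreated AT3 tumors for the 9 genes, whereas the M/D-driven tumors with and without NAM overlap for each of them.

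The first comparison asked whether NAM changed these genes in M/D-driven tumors. A gene was called when its unadjusted limma p did not exceed 0.05 and its fold change reached 1.5. None of the 9 complement genes was called, against 6.22% of the 21700 genes tested (3.03% higher and 3.19% lower with NAM, or 895 higher and 557 lower genes with upper quartile scaling, against 658 and 692). None had an unadjusted p under 0.05 in limma, and edgeR and DESeq2 on the recovered reads also called 0. Without NAM-treated tumor 1, 0 of the 9 were called as well, against 1112 of 21489 genes, with a median log2 fold change of 0.23 over the 9. With adjusted p values, 0 of the 9 and 0.00461% of all genes were called. The median log2 fold change was 0.11 over the 9 genes and 0.01 over all genes tested. In 0 of the 9 genes did the values of the groups separate, against 4.43% of all genes.

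Of the C1q genes, C1qa had normalized counts of 35960, 41690, 26950 and 27265 in untreated M/D-driven tumors 1 to 4, and of 26646, 46728, 28565 and 42482 in NAM-treated tumors 1 to 4. NAM-treated tumors 2 and 4 were the highest and NAM-treated tumor 1 the lowest, so that the NAM-treated range enclosed the untreated one. The log2 fold changes were 0.11 ± 0.25 (SE) for C1qa, 0.06 ± 0.23 for C1qb and 0.07 ± 0.23 for C1qc, all smaller than their errors. Without NAM-treated tumor 1, that is within experiment 1, they were 0.25, 0.23 and 0.18.

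In the classical pathway, C4b had normalized counts of 24037, 57893, 21094 and 22591 in untreated and of 36155, 27750, 19859 and 47696 in NAM-treated M/D-driven tumors. Untreated tumor 2 alone accounted for the upper end, and the other untreated tumors lay at the low end of the NAM-treated range (log2 fold change 0.13 ± 0.39, SE, and 0.06 within experiment 1). Reads of C4b may be shared with the near-identical C4a, whose group means never exceeded 63.9 normalized counts. C2, the protease of the classical C3 convertase, had 3534, 3445, 3057 and 6227 in untreated and 2593, 3228, 1900 and 3259 in NAM-treated tumors. A two-sided exact permutation test gave p = 0.086 for C2, the smallest value that 4 against 4 tumors allow being 0.029, and its log2 fold change of -0.54 ± 0.28 (SE) was -0.52 within experiment 1.

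C3, on which all pathways converge, had normalized counts of 6155, 3747, 5263 and 8075 in untreated M/D-driven tumors and of 13923, 5813, 5921 and 13825 in NAM-treated tumors. NAM-treated tumors 1 and 4 were above every untreated tumor, whereas NAM-treated tumors 2 and 3 lay within the untreated range. The log2 fold change of 0.69 ± 0.38 (SE) was the largest of the 9 genes, but it did not pass the test (limma adjusted p = 0.74), and it was 0.48 within experiment 1.

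In the alternative pathway, Cfb had 9703, 8018, 6968 and 14456 normalized counts in untreated and 6498, 12165, 3589 and 10613 in NAM-treated M/D-driven tumors, with wide overlap (log2 fold change -0.34 ± 0.41, SE, and -0.28 within experiment 1). Cfp had 6686, 2941, 3543 and 4916 in untreated and 11761, 6305, 5856 and 3541 in NAM-treated tumors. NAM-treated tumor 1 was the only tumor of the model above 6686, and without it the log2 fold change of Cfp was 0.24 rather than 0.54 ± 0.40 (SE). Hc, the gene of C5, had 277, 214, 246 and 394 in untreated and 287, 203, 1790 and 190 in NAM-treated tumors. NAM-treated tumor 3 stood far above all others for Hc, and leaving it out turned the log2 fold change from 0.45 ± 0.69 (SE) to -0.30, whereas within experiment 1 it was 0.58.

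The same question was asked in AT3 tumors. C3 was the only complement gene called, 1.85-fold higher with NAM, so that 1 of 9 genes was called against 23.1% of the 19281 genes tested (12.2% higher and 10.9% lower, or 1460 higher and 3497 lower genes with upper quartile scaling, against 2358 and 2100). With a Benjamini-Hochberg adjusted p, limma called 0 of the 9, against 0.00519% of all genes, and edgeR 0, whereas DESeq2 called C3 alone, or 1 of 9 against 10.6% of all genes at its adjusted p, and an unadjusted p under 0.05 was reached by C3 alone in limma. The median log2 fold change was 0.18 over the 9 genes and -0.05 over all genes. C3 and C2 were the only members whose groups did not overlap, both higher with NAM, or 2 of 9 against 22.6% of all genes (11.7% higher).

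C3 had normalized counts of 313, 454 and 376 in untreated AT3 tumors 1 to 3 and of 559, 677 and 894 in NAM-treated AT3 tumors 1 to 3. Every NAM-treated tumor was above every untreated tumor, with a log2 fold change of 0.89 ± 0.27 (SE, limma adjusted p = 0.17). The exact permutation p was 0.1, the smallest that 3 against 3 tumors allow. C2 had 516, 763 and 666 in untreated and 838, 811 and 878 in NAM-treated AT3 tumors. Its groups separated by a narrow margin, and its log2 fold change of 0.40 ± 0.23 (SE) did not pass the thresholds (limma adjusted p = 0.30).

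C4b had 2261, 4374 and 2743 normalized counts in untreated and 3509, 4048 and 5845 in NAM-treated AT3 tumors. Untreated tumor 2 lay within the NAM-treated range, and without it C4b was also called (log2 fold change 0.81, against 0.54 ± 0.30 with all tumors). Cfb had 1968, 1837 and 3968 in untreated and 3818, 2263 and 2408 in NAM-treated tumors, with 1 high tumor in each group (0.18 ± 0.34). Cfp ranged from 1411 to 1868 in untreated and from 1440 to 1838 in NAM-treated tumors (-0.04 ± 0.22). Hc was low in both groups, with 40.6, 18.3 and 11.4 in untreated and 26.7, 16.9 and 47.9 in NAM-treated tumors (0.43 ± 0.62).

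The C1q genes gave no difference beyond the spread of AT3 tumors. C1qa had 18653, 10422 and 20462 normalized counts in untreated and 18809, 12039 and 9978 in NAM-treated AT3 tumors. Untreated tumor 2 and NAM-treated tumors 2 and 3 were low and the other 3 high, so that the low and high values were found in both groups. The log2 fold changes were -0.27 ± 0.33 (SE) for C1qa, -0.27 ± 0.32 for C1qb and -0.09 ± 0.27 for C1qc.

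**Figure D2:**
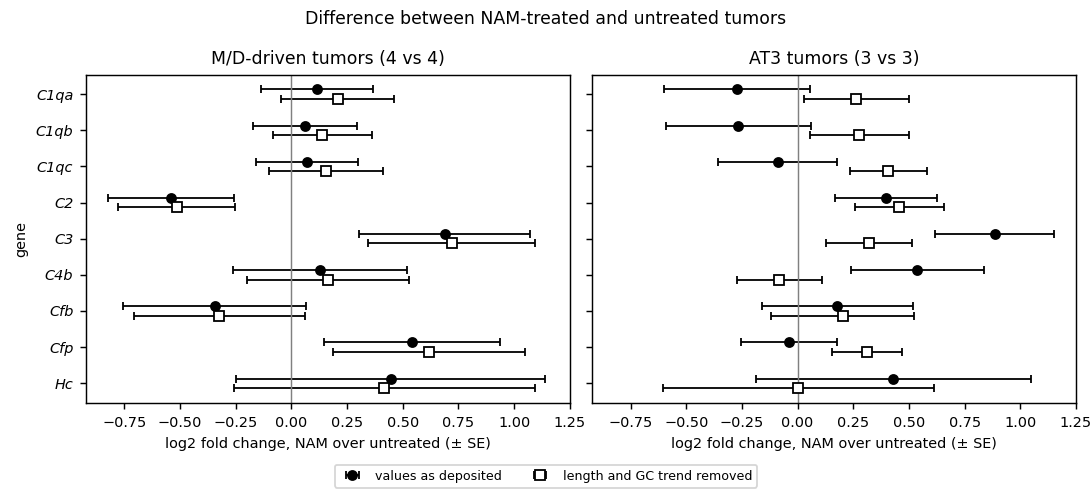
Points show the log2 fold change of NAM-treated over untreated tumors for each complement gene with its SE, in M/D-driven tumors (left, 4 against 4) and AT3 tumors (right, 3 against 3), for the deposited values (filled) and after a correction of each tumor for its trend with length and GC content (open). In AT3 tumors, C3 moves from 0.89 to 0.32 and the C1q genes move across 0, whereas in M/D-driven tumors each pair of points lies close together.

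Fold changes in AT3 tumors moved with transcript length across the whole table. Spearman's rho between the log2 fold change and the length of the longest GENCODE transcript was 0.59 over 16429 genes, which are not independent, against -0.04 over 18460 genes in M/D-driven tumors. The decile of genes with the shortest transcripts (median 861 bases) had a median log2 fold change of -0.76, and the decile with the longest a median of 0.72. The complement genes span this range, from C1qa (1040 bases), C1qb (1088 bases) and C1qc (1203 bases) to C3 (5136 bases), C4b (5379 bases) and Hc (5445 bases). After removal of the trend, the log2 fold change of C3 was 0.32 ± 0.19 (SE, limma adjusted p = 0.35) and the call was lost. C4b turned from 0.54 to -0.08, and C1qa, C1qb, C1qc and Cfp turned from values below 0 to 0.26, 0.28, 0.41 and 0.31. C2 (0.46) and Cfb (0.20) were little moved. C3 therefore passed the thresholds as measured and did not pass them once the trend was removed. After the removal, 8 of the 9 genes were above 0, against 8657 of 16429 genes. An unadjusted limma p of at most 0.05 was reached by 2 of the 9, against 3629 of 16429 genes, and 0 of the 9 were called.

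**Figure D3:**
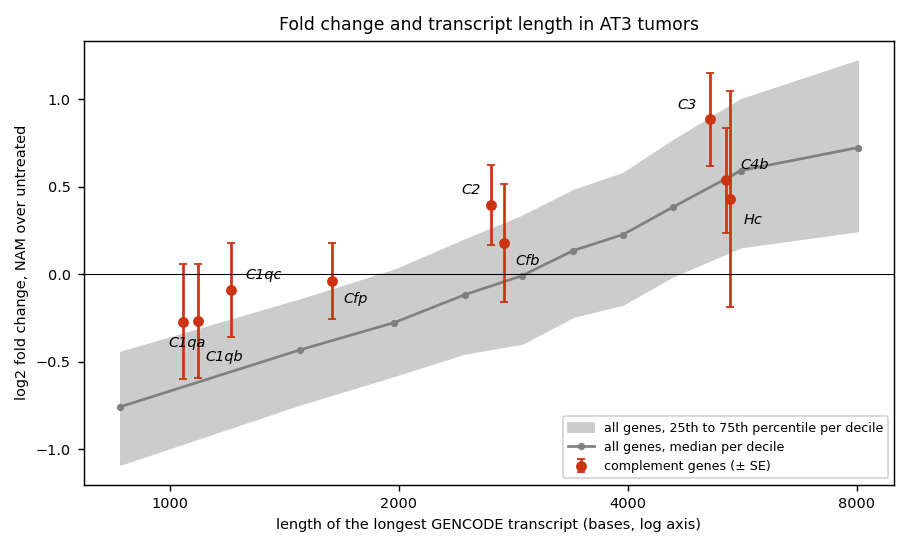
The log2 fold change of NAM-treated over untreated AT3 tumors is plotted against the length of the longest GENCODE transcript on a log axis, for the complement genes (red points with SE) and for all 16429 genes with a length, as the median (grey line) and the 25th to 75th percentile (band) of each decile of genes by length. C1qa, C1qb, C1qc, Cfp, C2, Cfb and C3 lie above the median of genes of their length, and C4b and Hc lie near or below it.

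Whether the effect of NAM differed between models was tested by the interaction in 1 fit over 14 tumors. Of the 9 genes, C2 was called (AT3 minus M/D-driven log2 difference 0.94 ± 0.38, SE, limma adjusted p = 0.29), against 14.9% of the 22710 genes tested (7.9% higher and 6.97% lower). Over all genes the split of 1795 higher and 1582 lower calls became 944 and 3214 with upper quartile scaling and 2292 and 1199 with TMM factors. C2 was lower in NAM-treated than in untreated M/D-driven tumors by 0.54 on the log2 scale and higher in NAM-treated AT3 tumors by 0.40, neither passing its own test. The call was lost with upper quartile scaling (0.59) and without any one of untreated M/D-driven tumor 4 (0.71), NAM-treated M/D-driven tumor 3 (0.77), untreated AT3 tumor 1 (0.78) or NAM-treated AT3 tumor 3 (0.91). Without NAM-treated M/D-driven tumor 1 C2 was still called (0.92). The difference for C3 was 0.20 ± 0.51, and 0.41 without that tumor.

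The third comparison set untreated M/D-driven against untreated AT3 tumors, after scaling all 14 tumors together by TMM factors, since the sources do not state that the models were normalized together. Model and experiment cannot be told apart here, as no experiment holds tumors of both models. All 9 complement genes were higher in M/D-driven tumors, against 33.5% of the 21498 genes tested called higher and 22.9% called lower (56.4% in all). All 9 were also called with limma adjusted p values, against 30.6% of all genes called higher and 50.7% called in either direction. The 9 genes separated without overlap, against 31.5% of all genes separating in this direction and 54.1% in either. The median log2 difference was 1.72 over the 9 genes, 1.68 over 36 other complement genes and 0.22 over all genes. Scaling moved these values together, as the median over all genes was 0.04 with median-of-ratios factors, -0.56 with the upper quartile and 0.48 on the deposited scale. With the upper quartile, the calls over all genes went from 7204 higher and 4913 lower to 4462 and 8691, the median of the 9 genes was 1.00, and 5 of the 9 (C2, C3, C4b, Cfb and Hc) were called.

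C3 differed most, with scaled counts of 3542 to 7369 in untreated M/D-driven and of 337 to 500.1 in untreated AT3 tumors. This was a 12.6-fold difference (log2 3.65 ± 0.27, SE, limma adjusted p = 6.8e-05). Hc, with scaled counts of 202 to 360 against 12.7 to 43.6, was 11.0-fold higher (3.46 ± 0.47). C4b was 8.06-fold higher (3.01 ± 0.39), with scaled counts of 19639 to 54728 against 2430 to 4820, and C2 5.17-fold higher (2.37 ± 0.27), with 2846 to 5683 against 555 to 840. Cfb was 3.28-fold higher (1.72 ± 0.34). These 5 genes kept the call under every alternative run, of scaling, test, filter, trend removal and tumors left out.

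The C1q genes and Cfp differed less. C1qc was 2.26-fold higher in untreated M/D-driven tumors (1.18 ± 0.26, SE), Cfp 2.17-fold (1.12 ± 0.28), C1qb 1.92-fold (0.94 ± 0.28) and C1qa 1.73-fold (0.79 ± 0.29, limma adjusted p = 0.047). With upper quartile scaling their log2 differences were 0.46 for C1qc, 0.40 for Cfp, 0.22 for C1qb and 0.08 for C1qa, and none was called. The call of C1qa was also lost with median-of-ratios factors (0.63), edgeR (0.66) and DESeq2 (0.58), and without untreated M/D-driven tumor 1 (0.74) or 2 (0.67) or untreated AT3 tumor 2 (0.50). Removal of the trend with length and GC content raised the differences of the C1q genes (1.24 for C1qa, 1.35 for C1qb and 1.54 for C1qc) and kept all 9 calls. The length trend had a Spearman's rho of 0.32 over 18118 genes in this comparison.

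**Figure D4:**
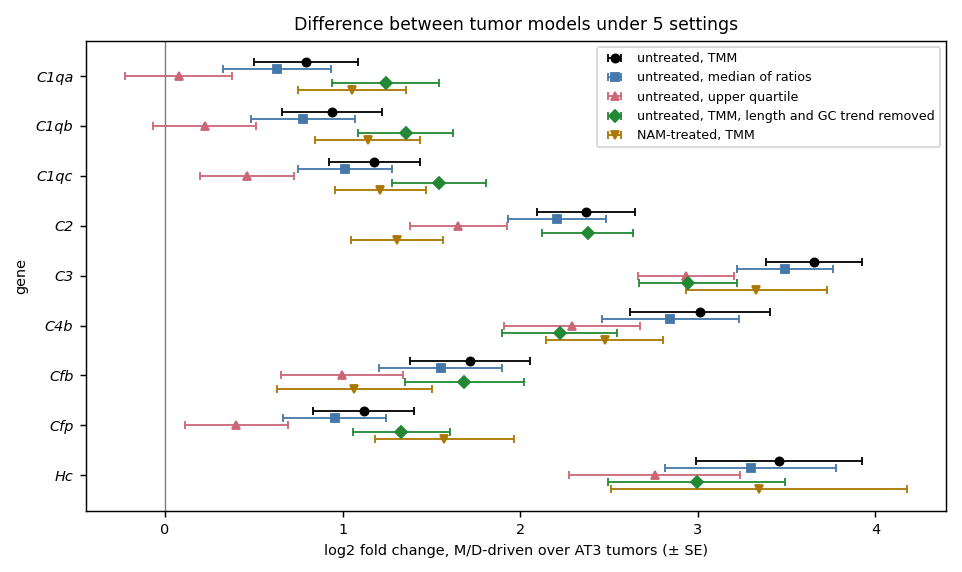
Points show the log2 fold change of M/D-driven over AT3 tumors with its SE for each complement gene, in untreated tumors with TMM, median-of-ratios or upper quartile scaling or after removal of the length and GC trend, and in NAM-treated tumors with TMM scaling. C3, C4b and Hc stay above 2 in all 5 settings, whereas C1qa falls to 0.08 with the upper quartile.

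The same genes were compared in the NAM-treated tumors of the models, as an alternative chosen after seeing the data. All 9 were again called higher in M/D-driven tumors, against 15.2% of the 21336 genes tested called higher and 25.5% called in either direction. A limma adjusted p of at most 0.05 was reached by 6 of the 9, against 1725 of the 21336 genes. Of the 9, 8 did not overlap, against 15% of all genes in this direction and 28% in either. Cfb overlapped (log2 difference 1.07), and the median of the 9 genes was 1.31, against 0.09 over all genes. Without NAM-treated M/D-driven tumor 1 all 9 were called higher as well, with a median of 1.33, against 4316 higher and 2774 lower of 21201 genes.

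Markers of several cell types moved in the same direction between untreated M/D-driven and untreated AT3 tumors, and their part in these differences was not tested. Over all genes tested, 33.5% were called higher and 22.9% lower. The marker counts were made with TMM scaling only. All 6 adipocyte genes were called higher in M/D-driven tumors, with a median log2 difference of 6.79 and a summed scaled count of 20867 to 61238 against 6041 to 9669. Of 12 macrophage genes 8 were called higher and 0 lower (median 1.45), with a summed scaled count of 102160 to 174450 against 33107 to 82335. Among these, the growth factor receptor gene Csf1r was 7.55-fold higher, whereas Cd68 (0.75-fold) and Trem2 (0.96-fold) did not pass the test, so that the macrophage genes did not move as one. Of 9 fibroblast and pericyte genes 6 were called higher (median 1.27), with overlapping sums (63092 to 346770 against 60306 to 196980), and of 9 epithelial genes 6 (median 3.40), with sums of 311620 to 951620 against 90182 to 108550. Of 7 monocyte and dendritic cell genes 5 were called higher and 0 lower (median 1.91), with overlapping sums (5115 to 9697 against 2777 to 9712), and of 5 neutrophil genes tested 3 were higher and 0 lower (median 3.35), with sums of 1056 to 369360 against 911 to 1835. Of 4 hepatocyte genes tested, 2 were called higher and 1 lower, with sums of 123 to 3334 against 282 to 703. Lymphocyte genes (2 of 10 higher, 1 lower, median 0.48) and genes of the interferon and acute-phase response (4 of 12 higher, 1 lower, median 0.20) were mixed.

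In AT3 tumors given NAM, the macrophage genes were split, and their part in the values of C3 and C1q was not tested. Of the 12, 5 were called higher (Csf1r, Adgre1, Mrc1, Cd163 and Mertk) and 0 lower, against 12.2% and 10.9% of all genes, but the log2 fold change was above 0 in 6 of 12 and its median was 0.08. Lyz2, the lysozyme gene, had a mean of 35748 normalized counts in untreated and 24156 in NAM-treated AT3 tumors, and Cd68, Fcgr1, Aif1, Trem2 and Ms4a7 also had log2 fold changes below 0, none passing the test. The summed normalized count of the macrophage genes was 30042 to 73964 (median 58971) in untreated and 35880 to 51255 (median 39974) in NAM-treated AT3 tumors. Of 9 fibroblast and pericyte genes 2 were called higher and 0 lower. These marker values were not corrected for the trend with transcript length (Spearman's rho 0.59 in AT3 tumors), whose part in the split was not tested.

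The rest of the pathway was followed in 45 other complement genes. In untreated M/D-driven against untreated AT3 tumors, 21 of the 36 tested were called higher and 5 lower, against the 33.5% and 22.9% of all genes. With the upper quartile they were 18 higher and 7 lower of 37, against 4462 higher and 8691 lower of all genes. Of the genes with the largest differences, Cfd, the adipsin gene for the factor D protease of the alternative pathway, was 50.4-fold higher in M/D-driven tumors (log2 5.65 ± 0.28, SE, limma adjusted p = 1.7e-05). Its scaled counts averaged 19416 ± 6702 (SD, n = 4) in untreated M/D-driven and 374 ± 78.0 (SD, n = 3) in untreated AT3 tumors. The lectin pathway protease gene Masp1 followed (4.90 ± 0.65), then the clusterin gene Clu, an inhibitor of the membrane attack complex (4.09 ± 0.51), and the C1 protease gene C1s1 (3.67 ± 0.24). Also higher were C1rb (2.96 ± 1.10, from a mean of 4.80 scaled counts in AT3 tumors), the integrin gene Itgam, a chain of complement receptor 3 (2.86 ± 0.33), the C1 inhibitor gene Serping1 (2.73 ± 0.46) and Susd4 (2.66 ± 0.56). The receptor genes for C3a and C5a, C3ar1, C5ar1 and C5ar2, were all called higher. Among the 5 genes lower in M/D-driven tumors, Cd46 and C4a had low counts in both models, with group means of 10.2 and 17.0 scaled counts in untreated M/D-driven and 50.9 and 70.2 in untreated AT3 tumors. C1qbp was also lower in M/D-driven tumors, but at high counts without overlap. Its scaled counts were 8070 to 11330 in untreated M/D-driven and 27185 to 35320 in untreated AT3 tumors.

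**Figure D5:**
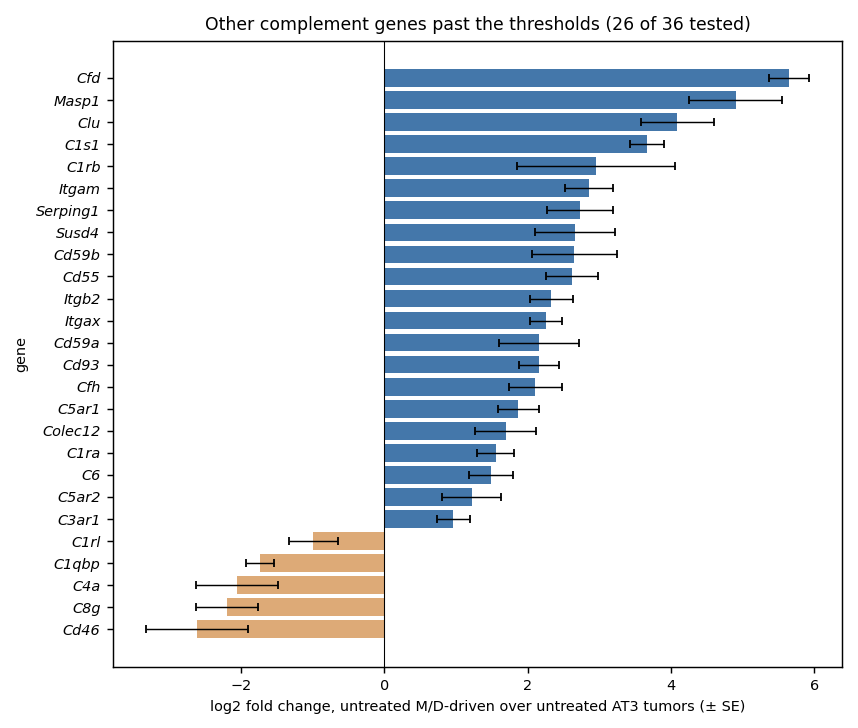
Bars start at 0 and give the log2 fold change of untreated M/D-driven over untreated AT3 tumors with its SE, for the 26 of 36 other complement genes past the thresholds, 21 higher (blue) and 5 lower (orange). Cfd is at the top with 5.65 and Cd46 at the bottom with -2.61.

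With NAM in M/D-driven tumors, 2 of 37 other complement genes tested were called, a share near the 6.22% of all genes. The membrane regulator gene Cd55 was 1.74-fold higher (log2 0.80 ± 0.23, SE, limma adjusted p = 0.73) and Masp1 was lower (-2.19 ± 0.88). The count was 1 without untreated tumor 1 (against 856 of 21788 genes) or without NAM-treated tumor 1 (1112 of 21489 genes). With NAM in AT3 tumors, 14 of 34 were called, 8 higher and 6 lower, against 12.2% of all genes higher and 10.9% lower (23.1% in all). With the upper quartile 4 were higher and 9 lower of 35, against 1460 higher and 3497 lower of 19402 genes. Higher genes included Cd93 (log2 1.67 ± 0.46), Itgam (1.18 ± 0.32) and C1s1 (0.91 ± 0.25), and lower genes included C9 (-2.38 ± 0.96), C1s2 (-2.05 ± 0.74), C4a (-1.19 ± 0.49), Cd46 (-1.09 ± 0.43) and the ficolin gene Fcna (-0.99 ± 0.35). C9, C1s2, C4a and Cd46 all had group means under 64 normalized counts. The count was 9 without untreated AT3 tumor 1 (against 2267 of 19640 genes) or NAM-treated AT3 tumor 2 (1861 of 19346 genes). Without NAM-treated AT3 tumor 3 it was 6 of 33, against 1618 of 19324 genes. After removal of the trend with length it was 10 of 34, against 2638 of 16429 genes. The interaction called 5 of 37, a share near the 14.9% of all genes, with C1s1 (1.02 ± 0.34), Itgam (1.62 ± 0.61) and Masp1 (2.65 ± 1.12) higher and C4a (-1.87 ± 0.84) and Cd46 (-2.65 ± 0.88) lower in AT3 than in M/D-driven tumors. The count was 3 without untreated AT3 tumor 2 (against 4444 of 22454 genes) or untreated AT3 tumor 3 (2575 of 23024 genes). It was also 3 without NAM-treated AT3 tumor 2 (2018 of 22723 genes) or NAM-treated AT3 tumor 3 (1838 of 22728 genes).

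Across tumors, the C1q genes followed each other closely in both models, whereas pairs among C2, C3, C4b and Cfb did so in at most 1 model. Pearson's r of log2 normalized counts, centred within each model, was 0.96 between C1qa and C1qb, 0.97 between C1qa and C1qc and 0.92 between C1qb and C1qc over 14 tumors, which share depth and cell content. The shares of the C1q chains were narrow, as C1qa took 33.5% to 40.3% of the normalized counts of the C1q genes in any tumor, C1qb 31.6% to 37.6% and C1qc 24.1% to 32.1%. C2 and its neighbour Cfb gave r = 0.71, with 0.87 in the 8 M/D-driven and 0.21 in the 6 AT3 tumors. C3 and C4b gave 0.41, with 0.16 and 0.90 in the respective models. C2 followed C3 (r = 0.89) and C4b (0.87) in AT3 tumors, against 0.0012 and 0.041 in M/D-driven tumors. All these r keep the differences between NAM-treated and untreated tumors and the trend with length, whose part in them was not tested. Over 14 tumors, r between C3 and each C1q gene was below 0 (-0.40 for C1qa, -0.43 for C1qb and -0.34 for C1qc). It was -0.19, -0.26 and -0.20 in M/D-driven tumors and -0.68, -0.65 and -0.55 in AT3 tumors. C4b was also below 0 with C1qa, C1qb and C1qc in AT3 tumors (-0.87, -0.86 and -0.80), as was C2 (-0.58, -0.56 and -0.43). In M/D-driven tumors r was above 0 for C4b (0.56, 0.26 and 0.66) and for C2 (0.06, 0.17 and 0.02). Cfb was above 0 and Hc below 0 with each C1q gene in both models, and Cfp was above 0 in AT3 tumors only.

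The genes of the table most like each member are given as a description, over the same 14 tumors. For C1qa they were Ly6i, Pla2g16 (r = 0.90 for both over 14 tumors) and the macrophage gene Ms4a7 (0.90), for C1qb Dusp28 (0.94), Tyrobp, an adaptor of myeloid receptors (0.92), and Pla2g16 (0.91), and for C1qc Pla2g16 (0.89), Ly6i (0.89) and B2m (0.87). C3 was most like Plxna4 (0.92), Rftn1 and Ust (0.90 for both), and C4b most like Heg1 (0.90), Ldlrad4 (0.86) and Rsad1 (0.86). Cfp was most like Fcna (0.95), Hes5 (0.93) and Med27 (0.91). Without NAM-treated M/D-driven tumor 1, which was the highest in Cfp, r was 0.89 with Fcna and 0.86 with Hes5. Within AT3 tumors r with Fcna was 0.68, and Hes5 gave no r there. For Cfb the closest were Slc15a3 (0.88), Ptafr (0.85) and Dio3 (0.82), for C2 Sall1 (0.87), Wbp1l and Larp1b (0.85 for both), and for Hc Ctsg (0.85), Dennd2a (0.84) and Rpusd1 (0.82).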

How the data were processed

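Messenger RNA libraries of 14 tumors were sequenced in paired-end mode. Per the labels and the methods of the study, the authors mapped reads with STAR 2.4.0 on mm10 and counted them on constitutive regions of genes. The deposited values are a normalized signal, the authors' counts divided by DESeq2 size factors, and 0 columns were left unmapped. Whole reads were recovered from the steps between values (100% of values whole within 0.02 reads). The sources do not say whether the models were normalized together. In AT3 tumors the deposited size factors were 0.357% to 2.66% from median-of-ratios factors set within the model and 16.1% to 24.1% from factors over all tumors, and in M/D-driven tumors 6.04% to 8.69% and 5.62% to 11.0%.

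The genes and lists were chosen with earlier results of these data known. limma 3.58.1 (R 4.3.3) was fitted, with a mean-variance trend, to log2(normalized count + 1) for all genes reaching a mean of 10 in 1 or more groups of a comparison. Calls needed an unadjusted p not above 0.05 and a 1.5-fold change, as the study's methods give these thresholds without naming an adjustment. Fold changes of low genes are understated on this scale. Models were compared after TMM scaling (edgeR 4.0.16). Members are all named, and other complement genes are named among the 8 with the largest change past the thresholds of a comparison. C3ar1, C5ar1, C5ar2 and C1qbp were added after their values were seen. Like genes are the 3 with the highest r. On recovered reads, edgeR called 1637 genes in M/D-driven and 4659 in AT3 tumors and DESeq2 1.42.0 called 2092 and 5049. Transcript length and GC content were those of the longest GENCODE transcript, found for 83.3% to 85.2% of the genes tested in a comparison, and their trend was removed in each tumor by splines with 4 degrees of freedom. Exact permutation tests (two-sided, over all splits of the tumors, in Python 3.11.15) were run on single genes. Alternatives also covered pseudocounts of 0.5 and 5, no filter or a minimum of 50, other scalings, replicate numbers as a block, 1 fit for all tumors and each tumor left out.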

Additional observations from a re-analysis of the deposited data

Results flagged for a closer look

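Single tumors far from the others of their group were found in 3 of 18 groups of 4 tumors tested by Dixon's criterion, all 3 with high values. The criterion was applied to normalized counts and not to their log2. Its rate of about 1 in 20 groups by chance holds for normal values and need not hold for skewed counts, so the 3 are given as a description. C2 was at 6227 normalized counts in untreated M/D-driven tumor 4, against 3057 to 3534 in the other untreated tumors, and this tumor was also the highest untreated tumor for C3, Cfb and Hc. C4b was at 57893 in untreated M/D-driven tumor 2, against 21094 to 24037 in the others. Hc was at 1790 in NAM-treated M/D-driven tumor 3, against 190 to 287 in the others. The effect of NAM on C2 differed between models by 0.94 on the log2 scale (interaction term of limma, adjusted p = 0.29), past the thresholds on the unadjusted p only. The causes of these differences were not tested.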

How the results depend on the processing

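Nearly all counts rest on unadjusted p values. With all tumors and an adjusted p of at most 0.05, limma called 0 complement genes, members or others, for NAM in either model or for the interaction. In AT3 tumors DESeq2 reached this adjusted p for 1 member and 6 of 34 others, against 2047 of 19281 genes. The replicate block reached it for 0 members and 2 of 34 others, against 1296 of 19281 genes. Without untreated AT3 tumor 2, limma reached it for 1 member and 2 of 35 others, against 2520 of 18933 genes. Without NAM-treated AT3 tumor 1, limma reached it for 1 member and 3 of 34 others, against 2498 of 19301 genes. No label says that same-numbered tumors are paired. Between same-numbered tumors the mean r was -0.19 (-0.46 to 0.11) in M/D-driven and 0.08 (-0.21 to 0.30) in AT3 tumors. Between tumors of different numbers it was 0.06 in M/D-driven and -0.05 in AT3 tumors. So few pairs cannot exclude a pairing. In AT3 tumors, limma reached an adjusted p of at most 0.05 for 1296 of 19281 genes with the replicate block, against 1 without it. With the replicate block, 1 member was called in M/D-driven tumors (C3, against 1001 of 21700 genes) and 1 in AT3 tumors (5082 of 19281 genes). The block also left 1 member called in the interaction (2959 of 22710 genes) and 8 between models (10631 of 21498 genes). Members called were 0 in AT3 tumors after removal of the length and GC trend (against 2638 of 16429 genes). With the upper quartile they were 0 in the interaction (4158 of 22978 genes) and 5 between models (13153 of 21903 genes). Other complement genes called were 1 of 37 in M/D-driven tumors with edgeR, against 1637 of 21700 genes. They were 5 of 37 in AT3 tumors with all 14 tumors in 1 fit, against 3323 of 22710 genes. In the interaction with a minimum group mean of 50 they were 3 of 32, against 2796 of 17470 genes. With each tumor left out, members called ranged from 0 to 0 (M/D-driven), 1 to 2 (AT3), 0 to 1 (interaction) and 8 to 9 (models). Other complement genes called then ranged from 1 to 3, 6 to 13, 3 to 7 and 24 to 31. Calls between models over all genes ranged from 10709 (without untreated AT3 tumor 1) to 12545 (without untreated M/D-driven tumor 2).

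Log2 values that changed sign were, in AT3 tumors, 0.26 for C1qa, 0.28 for C1qb, 0.41 for C1qc, -0.082 for C4b and 0.31 for Cfp without the length and GC trend, and -0.030 for Cfb with the upper quartile. In the interaction they were 0.044 for C1qb, 0.17 for C1qc, -0.36 for C3 and -0.20 for C4b without the trend, -0.14 for C3 with the upper quartile and 0.11 for Hc with TMM. With a tumor left out, signs changed in M/D-driven tumors for C1qa (-0.024 to 0.25), C1qb (-0.074 to 0.23), C1qc (-0.027 to 0.20), C4b (-0.074 to 0.47), Cfb (-0.58 to 0.0034) and Hc (-0.30 to 0.77), in AT3 tumors for C1qc (-0.29 to 0.076), Cfb (-0.058 to 0.53) and Cfp (-0.17 to 0.052), and in the interaction for C1qc (-0.36 to 0.0055), C3 (-0.014 to 0.41) and Hc (-0.41 to 0.73). Where no construction shows it, the cause was not tested.

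Over all genes, the 1350 calls in M/D-driven tumors became 1 with adjusted p, 2180 without a filter, 859 with a minimum of 50, 2092 with DESeq2, 2225 with all tumors in 1 fit, and 784 to 2712 with a tumor left out. The 4458 in AT3 tumors became 1 with adjusted p, 2638 without the trend, and 1618 to 6765 with a tumor left out, and the 3377 of the interaction became 0, 2139 and 1838 to 4574. With NAM-treated tumors, chosen after seeing the data, 5446 genes were called between models, or 7090 without experiment 2, against 12117.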
